A study of Mus musculus with 6 samples.

Results

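Seh1 was profiled on the chromatin of mouse neural stem cells in 2 ways: through a flag tag (Seh1-flag) and as the untagged protein in Ctrl cells (Seh1 Ctrl). The comparison set every peak of these 2 lists side by side by annotation, distance to the nearest transcription start site (TSS), nearest gene and position. With 24961 Seh1-flag and 20833 Seh1 Ctrl peaks the comparison covered 45794 of the 97783 peaks in the 6 lists of the series, whose other 4 lists have Chd4 as the target. Each group was 1 library of primary neural stem cells grown from P0 cortex with EGF and bFGF. The Seh1-flag cells were titled iKO, given the genotype wild type and treated with 4-OH-TAM in growth medium. The Seh1 Ctrl cells had the genotype wild type and growth medium alone. The title and the genotype of the Seh1-flag library differ, the name in its file header begins with oe, and the sources used here do not say whether those cells still made untagged Seh1. With 1 library a group there was no replicate check and no test, so every difference is between these libraries, and the tag, the antibody, the treatment and the cells cannot be told apart.

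Seh1 is a small beta-propeller protein of the Y-shaped complex, which lies on both faces of the nuclear pore and builds much of its scaffold. It is also a subunit of GATOR2, which signals amino acid supply to mTORC1 at the lysosome. Some nucleoporins are known to touch chromatin, at the pore or away from it. ChIP-seq maps such contact as stretches of DNA recovered with the protein, and these stretches are listed as peaks.

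The peaks were not of one kind. Seh1-flag peaks were listed as single positions, each with a score of the authors that ran between 2.0 and 709.7 with a median of 4.65 and whose scale is not stated. Seh1 Ctrl peaks were intervals of 240 to 1296 bp with a median of 273 bp, of which 7463 were exactly 240 bp wide, and all their scores were 0. Annotations rest on 1 position per peak in both lists, the summit in Seh1-flag and the interval's centre in Seh1 Ctrl. The depth of both libraries is unknown, and the 95% intervals given here are exact binomial ones that cover counting error only. Peak lists do not measure expression, so they do not check the labelled cell type.

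Sequence set the lists apart more than gene class did. Tracts annotated as (A)n or (T)n, runs of 1 base such as are left at the ends of retroposed elements, held 1934 Seh1-flag peaks (7.75%, 7.42 to 8.09%) and 16 Seh1 Ctrl peaks (0.0768%, 0.0439 to 0.125%). The share was 101 times as high in Seh1-flag. The Seh1-flag peaks were split evenly between strands, with 964 in (A)n and 970 in (T)n, and Seh1 Ctrl had 8 of each. The 4 Chd4 lists had 0 to 12 such peaks each, at most 0.0446% of a list. A-rich stretches held 188 Seh1-flag and 24 Seh1 Ctrl peaks, and T-rich stretches 181 Seh1-flag and 17 Seh1 Ctrl peaks. Repeats of other units differed little, with 2.0% of Seh1-flag and 1.46% of Seh1 Ctrl peaks.

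The same base composition could be read at promoters, where reference sequence was at hand. RefSeq windows of 300 bases around gene starts (GRCm38.p6) held 18 Seh1-flag summits and 21 Seh1 Ctrl centres. A run of at least 10 consecutive A or T, of 1 letter, lay in 15 of the 18 Seh1-flag windows (83.3%, 58.6 to 96.4%) and in 0 of the 21 Seh1 Ctrl windows, which allows up to 16.1%. Among all 32817 windows 1556 held one (4.74%). In the 15 windows the longest run was 15 to 26 bases, and the summit lay at a median of 7 bases from the nearest run, within 60 bases of it in 14. The median A+T content was 59.3% in the Seh1-flag windows, 49.3% in the Seh1 Ctrl windows and 47.3% over all windows. The following stretches show the bases around the summit on the strand of the gene, 5′ to 3′, with runs of 10 or more A or T in capitals. They are the 7 Seh1-flag windows of highest score among named genes, and that of Srebf1, whose summit lay inside the run. A run that meets the edge of its stretch, as at Mup18 and Psme3ip1, is shown only in part. The longest run in the Psme3ip1 window was 26 bases.
Pgk1, chrX:106186920-106187039, plus strand, score 11.3: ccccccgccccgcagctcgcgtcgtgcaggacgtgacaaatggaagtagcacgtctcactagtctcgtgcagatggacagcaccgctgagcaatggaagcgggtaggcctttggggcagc
Mgat4a, chr1:37536565-37536654, minus strand, score 8.25: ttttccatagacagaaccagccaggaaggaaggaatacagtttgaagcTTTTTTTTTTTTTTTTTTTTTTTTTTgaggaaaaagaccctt
Mup18, chr4:61674147-61674266, minus strand, score 7.60: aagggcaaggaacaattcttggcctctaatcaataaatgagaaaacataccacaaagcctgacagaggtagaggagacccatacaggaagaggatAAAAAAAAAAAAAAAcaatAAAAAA
Ccdc65, chr15:98708024-98708143, plus strand, score 6.19: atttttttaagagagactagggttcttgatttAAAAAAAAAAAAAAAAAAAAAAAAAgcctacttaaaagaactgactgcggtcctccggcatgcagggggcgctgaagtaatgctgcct
Psme3ip1, chr8:94591315-94591401, minus strand, score 5.75: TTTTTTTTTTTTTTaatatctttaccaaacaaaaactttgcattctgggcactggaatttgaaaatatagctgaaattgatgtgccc
Vmn2r106, chr17:20285582-20285680, minus strand, score 5.49: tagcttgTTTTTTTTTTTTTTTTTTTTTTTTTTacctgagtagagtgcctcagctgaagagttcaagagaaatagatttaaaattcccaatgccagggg
Vmn2r98, chr17:19053243-19053350, plus strand, score 5.49: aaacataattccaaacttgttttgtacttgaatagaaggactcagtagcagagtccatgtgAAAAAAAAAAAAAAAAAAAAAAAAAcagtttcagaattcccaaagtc
Srebf1, chr11:60222532-60222646, minus strand, score 4.65: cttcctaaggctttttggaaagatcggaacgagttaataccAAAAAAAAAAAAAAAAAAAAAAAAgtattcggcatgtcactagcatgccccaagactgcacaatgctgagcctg

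Of these, Pgk1, the glycolytic phosphoglycerate kinase, was the exception: its stretch had 36.7% A+T and no run. Mgat4a is a glycosyltransferase of N-glycan branching, Mup18 a major urinary protein, Ccdc65 a cilium protein, Srebf1 a transcription factor of lipid synthesis, and Vmn2r98 and Vmn2r106 are pheromone receptors. Their runs are on either strand of the gene. For contrast, the 3 widest Seh1 Ctrl intervals centred in such windows on named genes, at the ciliary gene Jhy, the interferon-induced GTPase Ifi47 and the melanoma antigen gene Magea3, had these bases, with no run of more than 5 in the window.
Jhy, chr9:40964561-40964680, minus strand: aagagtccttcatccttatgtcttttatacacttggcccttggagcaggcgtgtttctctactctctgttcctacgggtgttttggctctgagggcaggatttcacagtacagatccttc
Ifi47, chr11:49076347-49076466, plus strand: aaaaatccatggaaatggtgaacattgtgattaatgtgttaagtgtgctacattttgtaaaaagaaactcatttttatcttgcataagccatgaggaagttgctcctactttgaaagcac
Magea3, chrX:154949602-154949721, minus strand: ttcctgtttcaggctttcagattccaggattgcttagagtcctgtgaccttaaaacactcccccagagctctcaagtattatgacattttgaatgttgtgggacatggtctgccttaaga

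Short interspersed elements (SINEs) were also more frequent in Seh1-flag, with 15.1% of peaks against 7.29% in Seh1 Ctrl. The B1 family, mouse relatives of primate Alu that end in an A-rich tail, held 2643 Seh1-flag peaks (10.6%, 10.2 to 10.98%) and 519 Seh1 Ctrl peaks (2.49%, 2.28 to 2.71%). The gap was wide in the subfamilies B1_Mm, with 614 Seh1-flag and 52 Seh1 Ctrl peaks, B1_Mus1 with 732 Seh1-flag and 98 Seh1 Ctrl, and B1_Mus2 with 776 Seh1-flag and 72 Seh1 Ctrl. In B1F the shares differed by less than counting error, with 47 Seh1-flag and 36 Seh1 Ctrl peaks. B2, another tailed family, was mixed: B2_Mm1a had 184 Seh1-flag and 14 Seh1 Ctrl peaks and B2_Mm1t 133 Seh1-flag and 19 Seh1 Ctrl, while B3 had 145 Seh1-flag and 186 Seh1 Ctrl. B4 elements held 1.43% of Seh1-flag and 2.07% of Seh1 Ctrl peaks. Across the Chd4 lists B1 made up 1.73 to 2.28% of peaks. Introns held 859 of the 1934 Seh1-flag tract peaks (44.4%) and 1262 of the 2643 B1 peaks (47.7%). A peak annotated as promoter or exon carries that label in place of a repeat, so tracts there are not in these counts. The tract peaks were nearest to 1663 genes, at most 6 to a gene. Among named genes Cldn34c1 and Nlgn1 had 6 each, and Arrdc3 and Nrxn3 4 each.

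Retroviral and young LINE-1 elements were more frequent in Seh1 Ctrl. Long terminal repeat elements (LTRs) held 6.96% of Seh1-flag (6.65 to 7.29%) and 12.6% of Seh1 Ctrl peaks (12.2 to 13.1%). Intracisternal A particles (IAP), endogenous retroviruses that still move in mice, held 66 Seh1-flag and 304 Seh1 Ctrl peaks, a share 5.52 times as high in Seh1 Ctrl, and 1.54 to 5.26% of the peaks of the Chd4 lists. MERVL-int, the body of a retrovirus known for its transcription in early embryos, held 12 Seh1-flag and 88 Seh1 Ctrl. L1Md_T and L1Md_A, the young families of the LINE-1 retrotransposon, held 405 and 260 Seh1-flag peaks, against 707 and 475 in Seh1 Ctrl. The L1_Mur2 and L1_Mur3 families had 201 and 212 peaks in Seh1-flag, against 83 and 101 in Seh1 Ctrl. Major satellite (GSAT_MM), the tandem repeat around mouse centromeres, held 82 Seh1-flag and 81 Seh1 Ctrl peaks, and here the shares did not differ beyond counting error.

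Long interspersed elements (LINEs) held 21.7% of Seh1-flag and 25.1% of Seh1 Ctrl peaks. With all (A)n, (T)n and B1 peaks taken out of both lists, a setting chosen after the data were seen, the shares were 26.6% in Seh1-flag and 25.8% in Seh1 Ctrl, the opposite order. LTR peaks stayed lower in Seh1-flag, at 8.53% against 12.9% in Seh1 Ctrl. That setting takes out no LINE or LTR peak, so it changes these shares only through the totals.

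**Figure D1:**
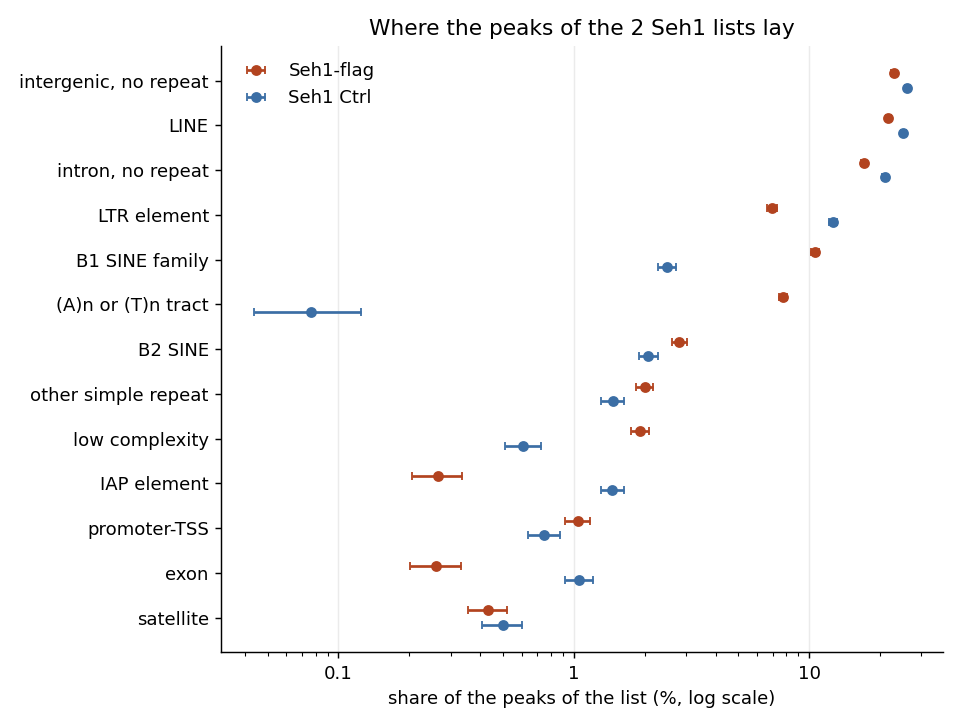
Share of each list's peaks (%, log scale) by annotation class, Seh1-flag above Seh1 Ctrl in each row; bars are exact 95% binomial intervals and cover counting error only. The tract row stands farthest apart, at 7.75% of Seh1-flag and 0.0768% of Seh1 Ctrl peaks, while IAP elements and exons had higher shares in Seh1 Ctrl and satellites had overlapping intervals.

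Score ordered these classes within the Seh1-flag list. The median score was 5.21 in (A)n or (T)n tracts, 4.79 in B1 and 4.65 over the list, and it was 3.62 in both IAP and young L1 elements (L1Md_A, L1Md_T and L1Md_Gf). When the list was cut into 10 bins of equal size from the highest scores down, tracts held 11.1% of the first bin (9.85 to 12.3%), 3.69% of the ninth and 4.73% of the last. LINEs held 18.8% of the first bin, 27.4% of the ninth and 26.8% of the last. B1 was 10.3% of the first bin, 12.5% of the fourth and 8.05% of the last. Promoter peaks, within 1 kb of a TSS, showed no such order, with 1.92% in the first bin, 0.881% in the second and 1.44% in the last. In each of the 10 bins the tract share was above the 0.0768% of the whole Seh1 Ctrl list.

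**Figure D2:**
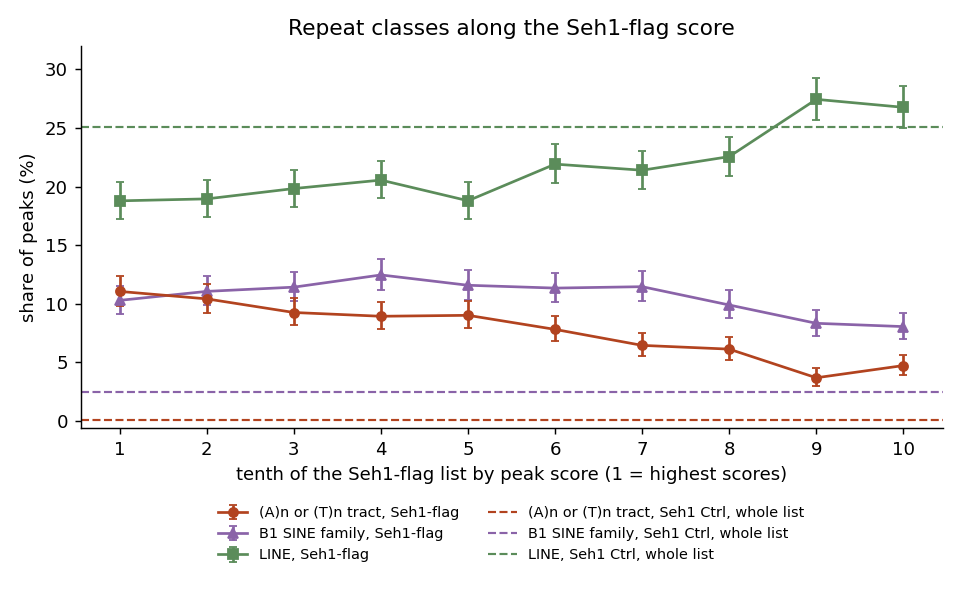
Share of Seh1-flag peaks (%) in LINEs, B1 elements and (A)n or (T)n tracts in 10 bins of the list from the highest scores (1) to the lowest (10), with exact 95% intervals; dashed lines give the whole Seh1 Ctrl list, which has no scores. Tracts were 11.1% of the first bin and 4.73% of the last, and LINEs were 18.8% of the first and 26.8% of the last.

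The Seh1-flag peaks of highest score were few and stood far from the rest. The first lay in intergenic sequence at -15631 bp from the start of Vit, which encodes vitrin, a matrix protein, with a score of 709.7 (chromosome 17, position 78492432). The second lay 214482 bp downstream of the start of Fut8, the core fucosyltransferase, with 535.9 (chromosome 12, position 77624623). The third lay in the single exon of Sox11, a transcription factor of newborn neurons, with 259.0 (chromosome 12, position 27341891). The next was 80.9, upstream of the contactin-associated gene Cntnap5c, then 59.6 near the metalloreductase gene Steap1 and 58.4 near Adam29, a testis metalloprotease gene. None of the first 3 was in Seh1 Ctrl, whose nearest centres were 123918, 73562 and 35695 bp away. Most Seh1-flag peaks were absent from Seh1 Ctrl, as only 0.705% of all, widened to 240 bp, overlapped a Seh1 Ctrl interval. Overlap was still more frequent at the highest scores. The first score bin, with 2497 of the 24961 peaks, held 45 of the 176 that overlapped (25.6%, 19.3 to 32.7%). Above the list's median score lay 97 of the 176 (55.1%, 47.4 to 62.6%). Some Chd4 lists had summits near the first 3 peaks, but those of the Chd4 Ctrl list were 1297490 bp or more away from each of the 3. Near the Vit peak they lay 362 bp off in Chd4 iKO, 188 bp in siSeh1 and 167 bp in siSCR. At the Fut8 position the Chd4 iKO summit was 18 bp off, and those of siSeh1 and siSCR were 25395 and 202799 bp off. In the Sox11 exon siSeh1, iKO and siSCR had summits 127, 333 and 299 bp off.

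Exons separated the lists too. They held 65 Seh1-flag peaks (0.260%, 0.201 to 0.332%) and 220 Seh1 Ctrl peaks (1.06%, 0.922 to 1.204%). The 59 host genes in Seh1-flag and 217 in Seh1 Ctrl had 2 in common, Seh1l and Csmd2. Robo2, a receptor for the axon guidance cue Slit (chromosome 16, 73891976 to 75447443), had Seh1-flag peaks in exons 1, 8, 9, 11 and 14 of 28, with scores of 33.3, 10.2, 15.3, 11.9 and 30.8. No other gene had more than 2 exon peaks in either list. The gene held 23 Seh1-flag peaks in all and 16 Seh1 Ctrl peaks, none of the 16 in an exon, and the Chd4 lists had 0 exon peaks there. Slit1, a ligand of Robo receptors, had Seh1-flag peaks in exons 1 and 32 of 37, with scores of 5.39 and 4.65, and 2 intron peaks in Seh1 Ctrl. In exon 1 the Seh1-flag summit lay at 41743367 and a Chd4 siSCR summit at 41743292. In exon 32 the Seh1-flag summit lay at 41606495 and a Chd4 siSeh1 summit at 41606466. The inflammatory caspase gene Casp4 had 2 exon peaks in Seh1-flag, and the scaffold gene Dlg5 and the ciliary transcription factor gene Rfx2 had 2 each in Seh1 Ctrl.

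Seh1l, which encodes Seh1 (chromosome 18, 67774876 to 67795487), was marked inside the gene in both lists. Seh1-flag had a summit in exon 4 of 8 at position 67785024 with a score of 9.52, and 1 peak in an intron. Seh1 Ctrl had an interval over the same exon (67784806 to 67785125). Chd4 summits lay in that exon in siSeh1, with a score of 23.2, and in siSCR, with 7.79. Cdkn1a, the cell cycle inhibitor p21, held none, and the nearest peak centre lay 2262 bp outside it in Seh1-flag and 466844 bp outside it in Seh1 Ctrl.

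Widest among the Seh1 Ctrl intervals was one of 1296 bp in Rn45s, the precursor of ribosomal RNA (chromosome 17, 39845029 to 39846324), where Seh1 Ctrl had 5 peaks and Seh1-flag 0. The next named genes were the dinucleosidase gene Fhit with 975 bp, Immp1l with 941 bp, Hnmt with 861 bp and Cacna2d2 with 848 bp. Then came Pisd-ps3 with 847 bp, Gnpda2 with 801 bp, Mms22l with 797 bp, Dipk2a with 793 bp and Tfb1m with 789 bp. Those at Fhit, Immp1l, Hnmt, Gnpda2, Mms22l and Dipk2a lay in L1Md_T or L1Md_A elements.

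Seh1-flag peaks lay nearer to genes than Seh1 Ctrl peaks. The median distance to the nearest TSS was 45601 bp in Seh1-flag and 58942 bp in Seh1 Ctrl. Peaks 1 to 5 kb away were 8.69% of Seh1-flag (8.35 to 9.05%) and 6.41% of Seh1 Ctrl (6.08 to 6.75%), and peaks 100 to 500 kb away were 25.4% of Seh1-flag and 29.6% of Seh1 Ctrl. Within 1 kb Seh1-flag had 381 peaks (1.53%, 1.38 to 1.69%) and Seh1 Ctrl 282 peaks (1.36%, 1.203 to 1.52%), a difference of 0.175 points whose 95% interval ran from -0.0462 to 0.393. In the annotated promoter class, Seh1-flag had 259 peaks (1.04%) and Seh1 Ctrl 156 (0.749%), a difference of 0.289 points with an interval of 0.116 to 0.461. Within 500 bp the shares were 0.605% in Seh1-flag and 0.643% in Seh1 Ctrl, the opposite order, so the promoter difference depended on the definition. Without tract and B1 peaks the median distances were 51327 bp in Seh1-flag and 60185 bp in Seh1 Ctrl.

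**Figure D3:**
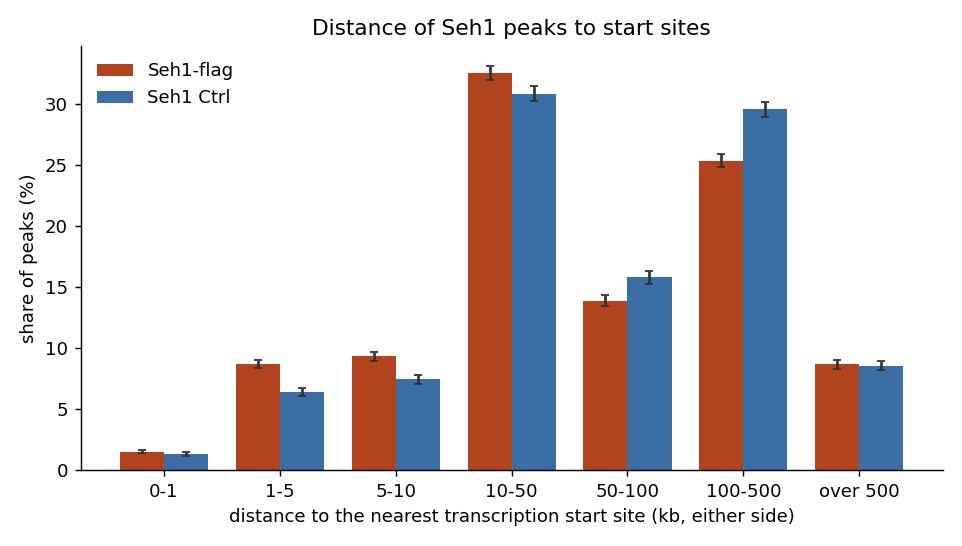
Share of peaks (%) by distance to the nearest TSS (kb, either side) in Seh1-flag (left bars) and Seh1 Ctrl (right bars), with exact 95% intervals. Seh1-flag was higher between 1 and 50 kb, Seh1 Ctrl between 50 and 500 kb, and the intervals overlapped within 1 kb and beyond 500 kb.

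Within 1 kb the sides differed. Of the Seh1-flag promoter peaks 240 of 381 lay upstream of the TSS (62.99%, 57.9 to 67.9%), and of the Seh1 Ctrl ones 134 of 282 (47.5%, 41.6 to 53.5%). Exons held 6 of the 381 Seh1-flag peaks (1.57%) and 33 of the 282 Seh1 Ctrl peaks (11.7%).

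Promoter peaks marked 370 gene names in Seh1-flag and 282 in Seh1 Ctrl, and 6 were in both, 1.62% of the Seh1-flag and 2.13% of the Seh1 Ctrl names. Among 21900 protein-coding genes 1.33% had a Seh1-flag promoter peak, 1.02% a Seh1 Ctrl one and 0.0228% both. The 6 were Nrf1, B4galt1, Proser1, Adam19, Pramel1 and Mirlet7g. At Nrf1, which encodes a transcription factor of nuclear genes for mitochondria, the summit (chromosome 6, 30087078, score 3.62) lay inside the interval 30086818 to 30087411. It was the only pair of the 6 that overlapped. At B4galt1, a galactosyltransferase gene, the peaks were 908 bp apart, with the summit 922 bp upstream of the TSS and the interval's centre 14 bp upstream. At Proser1, whose product acts with chromatin enzymes, they were 1056 bp apart, at Pramel1, a member of a germline gene family, 517 bp, and at the microRNA gene Mirlet7g 410 bp. At Adam19, a metalloprotease gene, the peaks belonged to different start sites, 73526 bp apart.

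The 10 named genes with the highest Seh1-flag promoter scores had no promoter peak in Seh1 Ctrl. The same held for all but 6 of the 370 Seh1-flag promoter gene names. Sox11 had 259.0 and Robo2 33.3, both in exon 1. Speer4cos with 28.7, Speer4d with 28.6 and Speer8-ps1 with 20.2 belong to a family expressed in sperm on chromosome 5, and the pseudogene Pisd-ps3 had 28.2. Snord14c, a small nucleolar RNA, had 24.2 and its host Hspa8, the constitutive heat shock chaperone, 11.5. The ribosomal pseudogene Rpl14-ps1 had 21.7 and Pgk1 11.3.

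Direct overlap was rare. With summits widened to 240 bp, 176 Seh1-flag peaks (0.705%, 0.605 to 0.817%) overlapped 176 Seh1 Ctrl intervals (0.845%, 0.725 to 0.979%) by at least 1 bp. The median distance between a Seh1 Ctrl centre and the nearest Seh1-flag summit was 38698 bp, and 18.1% of the centres had one within 10 kb. Satellites stood out: 35 of 108 Seh1-flag satellite peaks (32.4%, 23.7 to 42.1%) and 35 of 104 Seh1 Ctrl ones (33.7%, 24.7 to 43.6%) overlapped, while 2.18% was the highest share of any other class of more than 100 peaks in either list. Of the 176 Seh1-flag peaks 124 lay in repeats (70.5%, against 56.8% of all Seh1-flag peaks). Bins of 200 kb with 10 or more peaks in either list held 62 (35.2%, against 4.80% of all). In (A)n or (T)n tracts lay 9 (5.11%, against 7.75% of all). At a promoter lay 1, that of Nrf1 (0.568%, against 1.53% of all). Unplaced scaffolds held 23, the start of chromosome 9 held 13 and the stretch of chromosome 5 with the Speer genes held 11. Chd4 lists overlapped 49 of the 176 (27.8%, 21.4 to 35.1%). By list this was 36 in Chd4 iKO, 37 in siSeh1, 16 in siSCR and 4 in Chd4 Ctrl. Of all Seh1-flag peaks 0.485 to 0.725% overlapped each Chd4 list, and of all Seh1 Ctrl peaks 0.0960 to 1.13%.

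By score, the first shared peaks lay near Adam29 (50.8, chromosome 8, 55514779), Pisd-ps3 (40.0) and Speer4c (36.9, chromosome 5, 15711938). Others with named genes were Speer8-ps1 (25.4), the pheromone receptor gene Vmn1r56 (18.5) and the hedgehog signal transducer gene Smo (14.9, in a (CTGTG)n repeat). H60c, an immune ligand gene, had a shared peak in a retroviral element (14.9). At Vmn1r56 the summit and the interval's centre were 2 bp apart.

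Peaks also gathered in blocks of 200 kb. Bins with 10 or more peaks numbered 66 in Seh1-flag and 2 in Seh1 Ctrl, both of them among the 66, and are called dense bins. Since each was dense in Seh1-flag, the 1199 Seh1-flag and 232 Seh1 Ctrl peaks in them describe the choice of bins and are no comparison of the lists. The dense bins held 13 of the 25 Seh1-flag peaks of highest score and 4.80% of all Seh1-flag peaks. On chromosome 5, from 14800001 to 16000000 among the Speer genes, there were 229 Seh1-flag and 14 Seh1 Ctrl peaks. The Chd4 lists had 89 there in siSCR, 19 in iKO, 11 in siSeh1 and 0 in Ctrl. On the scaffold of Pisd-ps3 there were 42 Seh1-flag and 42 Seh1 Ctrl peaks, and on chromosome 9, from 3000001 to 3200000, 17 Seh1-flag and 34 Seh1 Ctrl. These are regions of repeated gene copies or satellite, where reads can fit more than 1 place. The sources used here do not say how such reads were placed, and their part in these counts was not tested.

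Many genes had several peaks in both lists. By nearest TSS, 2569 gene names had 3 or more Seh1-flag peaks and 2159 had 3 or more Seh1 Ctrl peaks, and 1203 had both, 46.8% of the Seh1-flag and 55.7% of the Seh1 Ctrl names. Of 13864 names these are 18.5%, 15.6% and 8.68%. Counted by peaks inside the gene, 300 protein-coding genes had 3 or more in both. At 20 or more peaks there were 74 names in Seh1-flag, 31 in Seh1 Ctrl and 18 in both. Lrrc4c, a synaptic adhesion gene of 1313504 bp on chromosome 2, had 39 Seh1-flag and 43 Seh1 Ctrl peaks, and inside the gene 6 Seh1-flag and 14 Seh1 Ctrl. The cadherin gene Cdh9 had 40 Seh1-flag and 24 Seh1 Ctrl peaks, with 1 of each inside, and the cadherin gene Cdh20 31 Seh1-flag and 26 Seh1 Ctrl, with 1 Seh1-flag and 3 Seh1 Ctrl inside. Csmd3, a gene of 1211921 bp, had 32 Seh1-flag and 25 Seh1 Ctrl peaks, with 16 Seh1-flag and 17 Seh1 Ctrl inside. Grik2, a kainate receptor gene, had 33 Seh1-flag and 22 Seh1 Ctrl, Adgrl3, an adhesion G protein-coupled receptor gene, 28 Seh1-flag and 20 Seh1 Ctrl, and Ncam2 27 Seh1-flag and 23 Seh1 Ctrl. Inside, Grik2 had 7 Seh1-flag and 6 Seh1 Ctrl peaks. The order was the opposite inside Adgrl3, with 8 Seh1-flag and 11 Seh1 Ctrl, and inside Ncam2, with 2 Seh1-flag and 5 Seh1 Ctrl. Brinp3 had 22 Seh1-flag and 24 Seh1 Ctrl peaks, Naaladl2 had 24 in each list and Lsamp 22 in each. Inside, Brinp3 had 5 Seh1-flag and 2 Seh1 Ctrl, Naaladl2 16 Seh1-flag and 15 Seh1 Ctrl, and Lsamp 15 Seh1-flag and 23 Seh1 Ctrl.

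Some genes had many more peaks in one list, and a gene with many Seh1-flag peaks close together falls in dense bins by their definition. Btbd35f20 had 39 Seh1-flag peaks and 1 Seh1 Ctrl peak, with 38 of the 39 in dense bins, and Adam29 had 45 Seh1-flag and 11 Seh1 Ctrl, with 43 in dense bins. Llgl1, a cell polarity gene, had 28 Seh1-flag and 1 Seh1 Ctrl, all 28 in dense bins. Zxda had 25 Seh1-flag and 1 Seh1 Ctrl, Speer4d 26 Seh1-flag and 3 Seh1 Ctrl, Cldn34c1 32 Seh1-flag and 11 Seh1 Ctrl, Astx6 22 Seh1-flag and 4 Seh1 Ctrl and Vmn2r121 26 Seh1-flag and 5 Seh1 Ctrl. Skint6, a gene of skin T cell selection, had 28 Seh1-flag and 1 Seh1 Ctrl with 12 in dense bins. Sntg1, a neuronal syntrophin gene, had 25 Seh1-flag and 6 Seh1 Ctrl with none in a dense bin, and inside the gene 18 Seh1-flag and 4 Seh1 Ctrl peaks. Other genes had more Seh1 Ctrl peaks. Dmd, the dystrophin gene, had 8 Seh1-flag and 21 Seh1 Ctrl peaks, Rbfox1, a neuronal splicing factor gene, 5 Seh1-flag and 18 Seh1 Ctrl, and inside these genes the counts were 10 Seh1-flag and 24 Seh1 Ctrl for Dmd and 4 Seh1-flag and 21 Seh1 Ctrl for Rbfox1. Kctd16, a GABA-B receptor subunit gene, had 0 Seh1-flag and 13 Seh1 Ctrl by nearest TSS but 5 Seh1-flag and 1 Seh1 Ctrl inside the gene, the opposite order. Diaph2 had 10 Seh1-flag and 21 Seh1 Ctrl, Cntnap5a 10 Seh1-flag and 20 Seh1 Ctrl, Dach1 6 Seh1-flag and 17 Seh1 Ctrl, B3galt2 5 Seh1-flag and 16 Seh1 Ctrl and Il1rapl1 2 Seh1-flag and 12 Seh1 Ctrl. D3Ertd751e had 11 Seh1-flag and 24 Seh1 Ctrl, Ppp1r2-ps9 6 Seh1-flag and 18 Seh1 Ctrl, and Nudt12, with 17 Seh1-flag and 27 Seh1 Ctrl, had no peak inside the gene. Dmd, Diaph2, Il1rapl1 and Ppp1r2-ps9 lie on chromosome X, and so do Btbd35f20, Zxda, Cldn34c1, Vmn2r121 and Astx6, which had more Seh1-flag peaks. Dense bins held all Seh1-flag peaks of Zxda and Astx6, 31 of the 32 of Cldn34c1 and 13 of the 26 of Vmn2r121. Chromosome X held 4.72% of all Seh1-flag peaks (4.46 to 4.99%) and 7.47% of all Seh1 Ctrl peaks (7.12 to 7.84%).

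**Figure D4:**
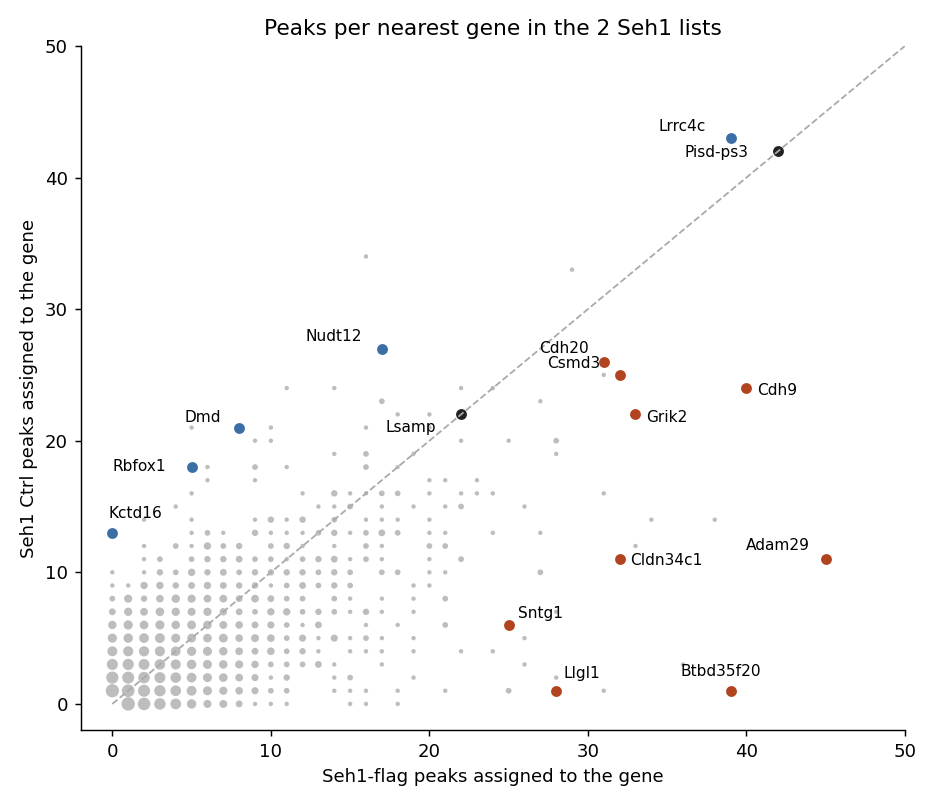
Peaks assigned to each gene by nearest TSS, Seh1-flag on the horizontal and Seh1 Ctrl on the vertical axis; grey points are gene names, larger where more names share a place, and the dashed line marks equal counts. Coloured points are named genes, red where Seh1-flag and blue where Seh1 Ctrl had more, and black where equal: Btbd35f20 and Llgl1 had 1 Seh1 Ctrl peak each against 39 and 28 in Seh1-flag, while Lsamp and Pisd-ps3 lie on the line.

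The lists differed by gene length. Inside protein-coding genes of 10 to 50 kb Seh1-flag had 11.1 peaks per Mb (10.7 to 11.6, exact Poisson interval) and Seh1 Ctrl 7.30 (6.95 to 7.67). In genes over 500 kb Seh1-flag had 7.54 per Mb (7.16 to 7.94) and Seh1 Ctrl 8.08 (7.69 to 8.49). The Seh1 Ctrl density was 7.12 to 8.08 per Mb over the 5 length classes. Without tract and B1 peaks, whose part in this was not otherwise tested, Seh1-flag had 8.11 and Seh1 Ctrl 6.88 per Mb at 10 to 50 kb, and Seh1-flag 6.38 and Seh1 Ctrl 7.97 above 500 kb. Of the 227 genes over 500 kb, 194 had 3 or more Seh1-flag peaks inside, 199 had 3 or more Seh1 Ctrl peaks and 171 had both.

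**Figure D5:**
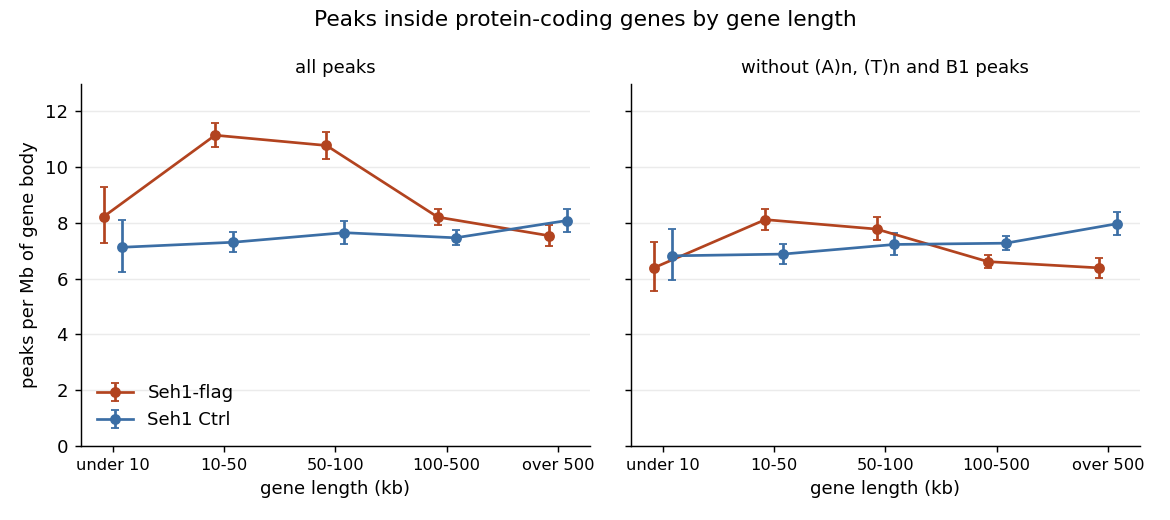
Peaks per Mb of gene body by gene length (kb) for Seh1-flag and Seh1 Ctrl, with exact 95% Poisson intervals, for all peaks (left) and without (A)n, (T)n and B1 peaks (right). On the left Seh1-flag reached 11.1 per Mb at 10 to 50 kb while Seh1 Ctrl stayed between 7.12 and 8.08, and on the right the lists were closer below 100 kb.

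The gene groups were read against all genes. Among all protein-coding genes 38.9% were nearest to a Seh1-flag peak and 34.1% to a Seh1 Ctrl peak, or 33.3% (Seh1-flag) and 33.2% (Seh1 Ctrl) without tract and B1 peaks. Of 52 cadherins and synaptic adhesion genes, long genes with a median span of 835 kb, 48 were nearest to a Seh1-flag peak and 49 to a Seh1 Ctrl peak, and a list member had a median of 7.5 peaks in both. Of 50 neurotransmitter receptors and ion channels 45 Seh1-flag and 45 Seh1 Ctrl were marked, among them Grik2, Grm7 with 14 Seh1-flag and 16 Seh1 Ctrl peaks, Gabrg1 with 15 Seh1-flag and 4 Seh1 Ctrl, Grin3a with 9 Seh1-flag and 9 Seh1 Ctrl, and Kcnip4 with 6 Seh1-flag and 12 Seh1 Ctrl. Of 33 axon guidance genes 22 were nearest to a Seh1-flag and 27 to a Seh1 Ctrl peak. The ephrin receptor gene Epha6 had 24 Seh1-flag and 16 Seh1 Ctrl peaks, and Epha5 had 14 Seh1-flag and 11 Seh1 Ctrl peaks. The ephrin gene Efna5 had 22 Seh1-flag and 15 Seh1 Ctrl peaks, and Efnb2 had 13 in each list. Of the netrin receptor genes, Unc5d had 16 Seh1-flag and 11 Seh1 Ctrl peaks and Dcc 12 Seh1-flag and 10 Seh1 Ctrl peaks. These 6 had the most peaks, and 11 other members had more Seh1 Ctrl than Seh1-flag peaks, among them Sema6a with 1 Seh1-flag and 6 Seh1 Ctrl peaks, Sema6d with 3 Seh1-flag and 7 Seh1 Ctrl, and Epha3 with 7 Seh1-flag and 9 Seh1 Ctrl. Robo2 and Slit1 had a promoter peak in Seh1-flag, and Slit2 in Seh1 Ctrl.

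Genes of the pore itself were marked more often in Seh1-flag, and so were those of several other lists below. Of 32 nucleoporins and GATOR2 genes 21 were nearest to a Seh1-flag peak (65.6%) and 10 to a Seh1 Ctrl peak (31.3%). The shares of all protein-coding genes were 38.9% in Seh1-flag and 34.1% in Seh1 Ctrl. Inside the genes lay 29 Seh1-flag and 12 Seh1 Ctrl peaks. Without tract and B1 peaks the counts were 19 Seh1-flag (59.4%) and 10 Seh1 Ctrl (31.3%). All protein-coding genes then had 33.3% in Seh1-flag and 33.2% in Seh1 Ctrl. The list had a median span of 44.2 kb, against 17.1 kb for all protein-coding genes, and the part of gene length was not tested. Nup35, of the inner ring, had 6 Seh1-flag and 2 Seh1 Ctrl peaks, and Nup98, of the channel, 4 Seh1-flag and 2 Seh1 Ctrl. Both had a promoter peak in Seh1-flag, and no member had one in Seh1 Ctrl. Nup93, of the inner ring, had 4 Seh1-flag and 0 Seh1 Ctrl peaks, Nup188, its partner, 2 Seh1-flag and 1 Seh1 Ctrl, and Nup210, a membrane protein of the pore, 1 Seh1-flag and 2 Seh1 Ctrl.

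Cell cycle and ribosomal genes also had more members marked in Seh1-flag than in Seh1 Ctrl. All protein-coding genes had 38.9% in Seh1-flag and 34.1% in Seh1 Ctrl. Of 35 cell cycle genes 17 were nearest to a Seh1-flag peak (48.6%) and 6 to a Seh1 Ctrl peak (17.1%). Without tract and B1 peaks the counts were 12 Seh1-flag (34.3%) and 6 Seh1 Ctrl (17.1%). All protein-coding genes then had 33.3% in Seh1-flag and 33.2% in Seh1 Ctrl. Cdk6 had 3 Seh1-flag and 4 Seh1 Ctrl peaks, the proliferation marker Mki67 4 Seh1-flag and 1 Seh1 Ctrl, and Cdk1 and Ccnd3 3 Seh1-flag and 0 Seh1 Ctrl each, and Ccnb1, a mitotic cyclin, had a promoter peak in Seh1 Ctrl. Of 30 ribosomal protein genes 12 were nearest to a Seh1-flag peak (40%) and 2 to a Seh1 Ctrl peak (6.67%). Inside these genes, of 3.17 kb median span, lay 1 Seh1-flag and 0 Seh1 Ctrl peaks. Without tract and B1 peaks the counts by nearest TSS were 10 Seh1-flag (33.3%) and 2 Seh1 Ctrl (6.67%). In that setting the Seh1-flag shares of both groups lay near that of all genes, and the Seh1 Ctrl shares lay below it. Rps4x had 3 Seh1-flag and 0 Seh1 Ctrl peaks, Rpl5 2 Seh1-flag and 1 Seh1 Ctrl, Rpl9 2 Seh1-flag and 0 Seh1 Ctrl and Rps3a1 1 Seh1-flag and 1 Seh1 Ctrl, and Rps7 had a promoter peak in Seh1-flag. Of 34 NuRD, BAF and Polycomb genes 20 Seh1-flag (58.8%) and 11 Seh1 Ctrl (32.4%) were marked. Without tract and B1 peaks these were 17 Seh1-flag (50%) and 11 Seh1 Ctrl (32.4%). Mbd2 had 9 Seh1-flag and 6 Seh1 Ctrl peaks, and the BAF ATPase gene Smarca2 5 Seh1-flag and 10 Seh1 Ctrl. Jarid2 had 6 Seh1-flag and 3 Seh1 Ctrl, and the deacetylase gene Hdac2 6 Seh1-flag and 1 Seh1 Ctrl. Suz12, of Polycomb repressive complex 2, had a Seh1-flag promoter peak. Of 20 p53 targets 11 Seh1-flag (55%) and 7 Seh1 Ctrl (35%) were marked, or 9 Seh1-flag (45%) and 7 Seh1 Ctrl (35%) without tract and B1 peaks. Ccng1 had 3 Seh1-flag and 4 Seh1 Ctrl peaks, and Plk2 4 Seh1-flag and 2 Seh1 Ctrl. Rrm2b had 5 Seh1-flag and 0 Seh1 Ctrl, and Pmaip1 4 Seh1-flag and 0 Seh1 Ctrl. The Seh1 Ctrl shares of these lists, 32.4% and 35%, lay near the 34.1% of all protein-coding genes.

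Genes of the neural lineage were marked about equally. Of 24 neural stem cell factors 15 were nearest to a Seh1-flag peak (62.5%) and 15 to a Seh1 Ctrl peak (62.5%). All protein-coding genes had 38.9% in Seh1-flag and 34.1% in Seh1 Ctrl. Zic1 had 6 Seh1-flag and 4 Seh1 Ctrl peaks and Otx1 2 Seh1-flag and 5 Seh1 Ctrl, none of them inside the genes, and Prom1 had a promoter peak in Seh1 Ctrl. Of 25 neurogenic and neuronal factors 12 Seh1-flag (48%) and 11 Seh1 Ctrl (44%) were marked. Sox11 had 4 Seh1-flag and 7 Seh1 Ctrl peaks, Map2 2 Seh1-flag and 5 Seh1 Ctrl and Stmn2 0 Seh1-flag and 4 Seh1 Ctrl, and Sox11 and Elavl4 had a Seh1-flag promoter peak. Markers of other cells were read in the same way. Of 12 for the oligodendrocyte lineage 2 Seh1-flag (16.7%) and 3 Seh1 Ctrl (25%) were marked. For astrocytes it was 7 Seh1-flag (58.3%) and 5 Seh1 Ctrl (41.7%) of 12. For microglia and endothelium it was 8 Seh1-flag (66.7%) and 5 Seh1 Ctrl (41.7%) of 12. For liver it was 10 Seh1-flag (33.3%) and 11 Seh1 Ctrl (36.7%) of 30.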

How the data were processed

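Peak lists of ChIP-seq on primary mouse neural stem cells were used as deposited. Peaks carry HOMER annotations made by the authors, with mm10 as the build per the file headers. The submitters' processing notes name Bowtie2 and HOMER with no version, and list human builds besides. The sources used here do not state the peak caller, its limits or whether libraries were pooled. The deposited peak score was used only to rank Seh1-flag peaks. Start, end and distance to TSS were taken as the authors deposited them. The members and gene lists were chosen with earlier results of these data known.

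Summits were widened to 240 bp, and a peak counted as shared with at least 1 bp of overlap. The overlap code was tested on simulated data, and bedtools 2.31.1 gave the same 176 peaks. Promoter peaks lay within 1 kb of a TSS. Shares carry exact 95% intervals (scipy 1.17.1), and differences of shares Newcombe's interval. Python 3.11.15, numpy 2.4.6, pandas 2.3.3 and matplotlib 3.10.9 were used. Gene spans and promoter windows came from the RefSeq tables of GRCm38.p6, to which 99.8% of gene identifiers matched.

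Named genes were those with a promoter peak in both lists, the first 10 by Seh1-flag promoter score, by peak score and by Seh1 Ctrl width, the first 10 by peak number and by difference either way, shared peaks of highest score and up to 6 members of each gene list. Seh1l and Cdkn1a were always named. Predicted and microRNA genes were passed over, and some genes are not reported here. Printed sequences, repeat families and exon hosts were chosen after their values were seen. Alternatives changed the score limit, promoter window, overlap, chromosomes, repeats, dense bins and gene assignment.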

Additional observations from a re-analysis of the deposited data

How the results depend on the processing

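No paired analysis was possible because each group had 1 library and no test was made. Of 58 recomputed values 34 stayed within counting error, or for counts within 1.5 times. With Seh1-flag cut to its 20833 peaks of highest score, the difference between Seh1-flag and Seh1 Ctrl was 8.76 points in simple repeats and -4.54 in LINEs, against 8.21 and -3.42 as reported, and 0.725% of Seh1 Ctrl peaks were shared. For the gene lists this cut was added after the data were seen. In the highest-scored 25% of Seh1-flag the differences were 10.7 points in simple repeats, -6.11 in LINEs and -6.30 in LTRs, against -5.65 as reported in LTRs. Without tract and B1 peaks, a setting added after the data were seen, they were 0.95 in simple repeats, 0.56 in SINEs against 7.78 as reported, -4.42 in LTRs and 0.79 in LINEs, a changed sign. That setting leaves 20384 Seh1-flag and 20298 Seh1 Ctrl peaks and takes out no LINE peak. In a promoter window of 5 kb the difference was 2.44 points, 10.2% in Seh1-flag and 7.76% in Seh1 Ctrl. Shared promoter genes numbered 1 at 500 bp, of 147 Seh1-flag and 134 Seh1 Ctrl names. At 5 kb they numbered 185, of 2288 Seh1-flag and 1532 Seh1 Ctrl names. Shared Seh1 Ctrl peaks were 1.07% with windows of 480 bp and 1.63% with 1000 bp, 0.638% with the summit inside the interval or with at least 120 bp of overlap, 0.405% without repeats and 0.553% without dense bins. Genes with several peaks in both lists numbered 2203 at 2 or more, 543 at 5 or more, 161 at 10 or more, 300 with peaks inside the gene and 379 without repeats. For these moved values no cause was tested beyond what each setting does. Depth is unknown, so a peak missing from a list cannot be told from one not detected.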

Other observations

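Chromosome shares and gene families gave further differences, reported here as values. Chromosomes 4, 5, 10, 11 and 17 held higher shares of Seh1-flag than of Seh1 Ctrl peaks, with differences of 0.529 to 1.01 points whose intervals did not reach 0. The largest was on chromosome 5. There the stretch of Speer genes described above held 229 of 1634 Seh1-flag and 14 of 1153 Seh1 Ctrl peaks. Chromosomes 2, 8 and 13 held lower shares, with differences of -0.773, -0.576 and -0.393 points. Zinc finger genes of the Zfp series took 1.46% of Seh1-flag and 1.21% of Seh1 Ctrl peaks. Pheromone receptor genes (Vmn) took 1.36% of Seh1-flag and 1.195% of Seh1 Ctrl peaks, a difference of 0.163 points whose interval, -0.0449 to 0.368, included 0. Odorant receptor genes (Olfr) took 1.19% of Seh1-flag and 1.43% of Seh1 Ctrl peaks, with an interval of the difference of -0.448 to -0.0274. Btbd35 genes took 0.529% of Seh1-flag and 0.245% of Seh1 Ctrl peaks and Speer genes 0.413% of Seh1-flag and 0.106% of Seh1 Ctrl peaks, families of near-identical copies for which read placement is uncertain.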
